A study of Mus musculus with 12 samples.

Results

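A group of 35 genes of cholesterol and fatty acid synthesis was followed in bone marrow-derived macrophages (BMDMs) given a BET inhibitor and an immune complex. The genes were listed by name as enzymes and regulators of both routes, by a rule that reads no measured value, although the list was drawn up with earlier results of these data known. All 35 were found among the 24421 symbols of the count table. There were 7 genes of the mevalonate arm, 10 of the sterol arm, 6 of sterol control, 3 of the fatty acid core, 6 of desaturation and elongation, and 3 acyl-CoA synthetases. All 35 passed the filter on low counts, as did 11468 genes in all.

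Macrophages were grown from the bone marrow of C57BL/6 mice for 5 days in macrophage colony-stimulating factor at 100 ng/mL. They received I-BET151 (iBET, a small molecule that keeps the BET proteins from binding acetylated histones) at 5.0 µM, or DMSO, the solvent. Each was combined for 4 hours with ovalbumin alone (Ova) or with ovalbumin bound by IgG into an insoluble immune complex (IC), which engages Fcγ receptors. The 4 groups, named by drug and stimulus (DMSO Ova, iBET Ova and so on), had 3 libraries of total RNA each, and every group had 1 library from each of the mice A, B and C. The labels have drug and stimulus added together, whereas the study's text has the drug added first, so their order is uncertain.

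Cholesterol is built from acetyl-CoA by way of mevalonate, isoprenoid units and squalene, and the squalene is then closed into a ring and trimmed to the finished sterol. Fatty acids are built from the same acetyl-CoA, which is carboxylated, joined into a chain, then desaturated or lengthened. Both routes are switched on by the SREBP transcription factors, which Scap carries to their activating proteases and which the Insig proteins hold back when sterol is plentiful. In macrophages these routes bear on membrane growth, lipid loading and inflammatory signalling.

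Total counts were 7549849 to 17387639 per library. The ribosomal precursor Rn45s took most counts of 1 DMSO Ova library, that of mouse A (from here the Rn45s-rich library), leaving 1768133 outside it, against 7247830 to 16899110 in the other 11 libraries. The 35 genes held 2604 counts in that library and 14994 to 32177 in the others, so its values are the least precise. Each Ova call of the 35 genes is also given without it. Macrophage markers summed to 6350 to 9180 CPM (counts scaled to a library of common size), with all 8 of those in the table detected, and were 7760 to 9180 CPM with iBET and 6350 to 7790 CPM with DMSO; their part in the results was not tested. Adipocyte markers reached at most 0.194 CPM, with Lep, Plin1 and Cidec at 0, and markers of erythroid and mast cells were at 0. All 5 neutrophil markers in the table were detected, summing to 5.65 to 35.1 CPM, most of it S100a9 (up to 27.6 CPM), with ranges that overlapped among the 4 groups. Markers of T cells, dendritic cells and stromal cells summed to at most 1.55 CPM. In bulk RNA, fewer cells of a type and less RNA per cell cannot be told apart.

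Members of the sterol route that carried the core of the sterol regulatory element near their start are shown first, since that element is where SREBP proteins bind. The letters searched were CACNCCAC on both strands, in 300 bases from 250 before to 50 after each annotated start, and the matches stand in capitals. The sequences are from RefSeq on GRCm38.p6, written 5′ to 3′ on the strand of the gene.
Acat2, chr17:12960676-12960975, strand -: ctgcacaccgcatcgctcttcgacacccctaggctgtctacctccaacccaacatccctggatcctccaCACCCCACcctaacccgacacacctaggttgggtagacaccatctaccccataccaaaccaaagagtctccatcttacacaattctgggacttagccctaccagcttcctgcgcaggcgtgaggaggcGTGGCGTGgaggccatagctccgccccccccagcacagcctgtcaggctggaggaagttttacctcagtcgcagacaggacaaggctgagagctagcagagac
Insig1, chr5:28071162-28071461, strand +: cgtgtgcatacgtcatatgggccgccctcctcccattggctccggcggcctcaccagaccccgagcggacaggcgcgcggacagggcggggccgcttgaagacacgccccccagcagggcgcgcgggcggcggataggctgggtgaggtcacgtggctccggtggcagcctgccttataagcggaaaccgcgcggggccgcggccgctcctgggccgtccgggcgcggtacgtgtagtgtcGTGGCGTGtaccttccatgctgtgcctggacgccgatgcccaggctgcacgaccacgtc
Hmgcs1, chr13:119690101-119690400, strand +: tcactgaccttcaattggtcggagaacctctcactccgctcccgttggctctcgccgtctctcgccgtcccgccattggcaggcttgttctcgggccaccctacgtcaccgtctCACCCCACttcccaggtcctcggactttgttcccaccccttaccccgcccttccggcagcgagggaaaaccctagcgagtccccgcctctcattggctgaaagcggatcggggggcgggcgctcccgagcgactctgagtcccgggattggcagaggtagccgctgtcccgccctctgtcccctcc
Acat2 held 2 matches, at 181 and 53 bases before its start, and Insig1 and Hmgcs1 held 1 each, at 9 and 136 bases before theirs. Such windows were at hand for 28 of the 35 genes, and the core stood in those of 5 (17.9%), the other two being Acsl1 and Acsl4, against 7.12% of all 27025 symbols with a window. Windows of 22 genes (78.6%) held the NF-Y box, CCAAT, against 41.1% of all symbols. The GC box, GGGCGG, stood in 23 (82.1%) against 38.2%, and the E-box, CACGTG, in 6 (21.4%) against 8.09%. The 27025 symbols were not limited to the 11468 genes that passed the filter on low counts, as all 35 did. A gene counted if any of its windows held the motif. The 28 genes had 37 windows, and the 27025 symbols had 32851. No motif searched contains another, and a match describes the letters only. The 3 genes shown took different courses, as given below: Acat2 and Insig1 rose with iBET after both stimulations, and Hmgcs1 fell after Ova. Of the 8 genes with a window that were called higher after both stimulations, 2 held the core, Acat2 and Insig1. The 7 genes without a window were Sqle, Fdps, Fdft1, Stard4, Scd1, Scd2 and Fads1. A link between the core and the change with iBET was not tested.

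Levels of different genes were set side by side as CPM per kilobase of exon (GENCODE vM21, GRCm38). In DMSO Ova they ran from 0.365 ± 0.0437 for Tm7sf2, a sterol reductase, to 40.2 ± 1.79 for Acsl4, which activates arachidonic acid (SD, n = 3), a 110-fold range. After Acsl4 came Ebp at 23.8 ± 0.864 and Acly at 22.5 ± 1.56, whose spreads overlap. The lowest after Tm7sf2 were Lss at 0.985 ± 0.238 and Dhcr7 at 1.36 ± 0.334, which likewise do not differ beyond their spread. Acat2 stood at 3.94 ± 1.66 per kilobase in DMSO Ova and was among the genes with the widest spread relative to the mean. The annotation gives 6 of the 35 genes exonic bases shared with another coding gene, and reads there may belong to either gene. These are Fdft1 with Ctsb (18.3% of its exonic bases), Cyp51 with Akap9, Srebf1 with Rai1, Fdps with Gm43738 (26.7%), Tm7sf2 with Vps51 (12.1%) and Acsl3 with Utp14b (5.6%).

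**Figure D1:**
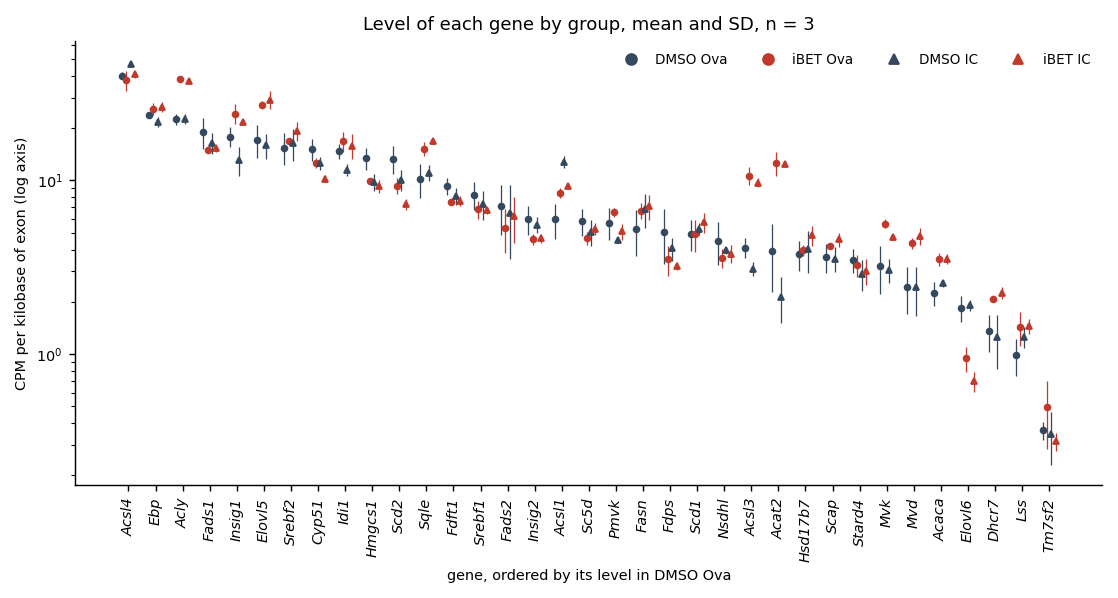
Mean level of each of the 35 genes in CPM per kilobase of exon on a log axis, ordered by the level in DMSO Ova; bars are the SD of 3 libraries, circles mark Ova, triangles IC, dark DMSO and red iBET. Acsl4 is highest at 40.2 and Tm7sf2 lowest at 0.365 in DMSO Ova, and the red points of Acat2, Acsl3 and Elovl6 stand clear of their dark ones.

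The first question was what iBET did to these genes in each stimulation. After Ova, 15 of the 35 were called, 10 higher and 5 lower, at an adjusted p under 0.05 (edgeR quasi-likelihood test, Benjamini-Hochberg over all genes tested). That is 42.9% of them, beside 31.3% of all genes (17.1% higher and 14.2% lower). After IC, 15 were called, 12 higher and 3 lower, again 42.9%, beside 34.8% of all genes (19% higher and 15.8% lower). The median log2 change of the 35 was 0.12 after Ova and 0.13 after IC, against 0.02 and -0.0037 over all genes. These medians rested on single libraries. After Ova the median was 0.0025 without the Rn45s-rich library (-0.0080 over all genes) and 0.20 without the mouse B library of DMSO Ova. After IC it was 0.03 without the mouse A library and 0.19 without the mouse C library of DMSO IC. Both comparisons use different libraries of the same mice. Called higher in both were 9 genes (Acat2, Mvk, Mvd, Sqle, Insig1, Acly, Acaca, Elovl5 and Acsl3), 2 were called lower in both (Scd2 and Elovl6), and Acsl1 was called higher after Ova and lower after IC. Without the Rn45s-rich library, 17 were called after Ova, 7 higher and 10 lower, beside 29% of all genes. With mouse as a block, 18 were called after Ova and 17 after IC, beside 38.3% and 42.1% of all genes. DESeq2 called 15 after Ova (8 higher and 7 lower) and 15 after IC (11 higher and 4 lower). That was beside 28.5% and 31.6% of the genes to which it gave an adjusted p. After Ova it did not call Mvd or Insig1, and it called Fdps and Cyp51 lower. After IC it did not call Ebp and called Cyp51 lower.

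**Figure D2:**
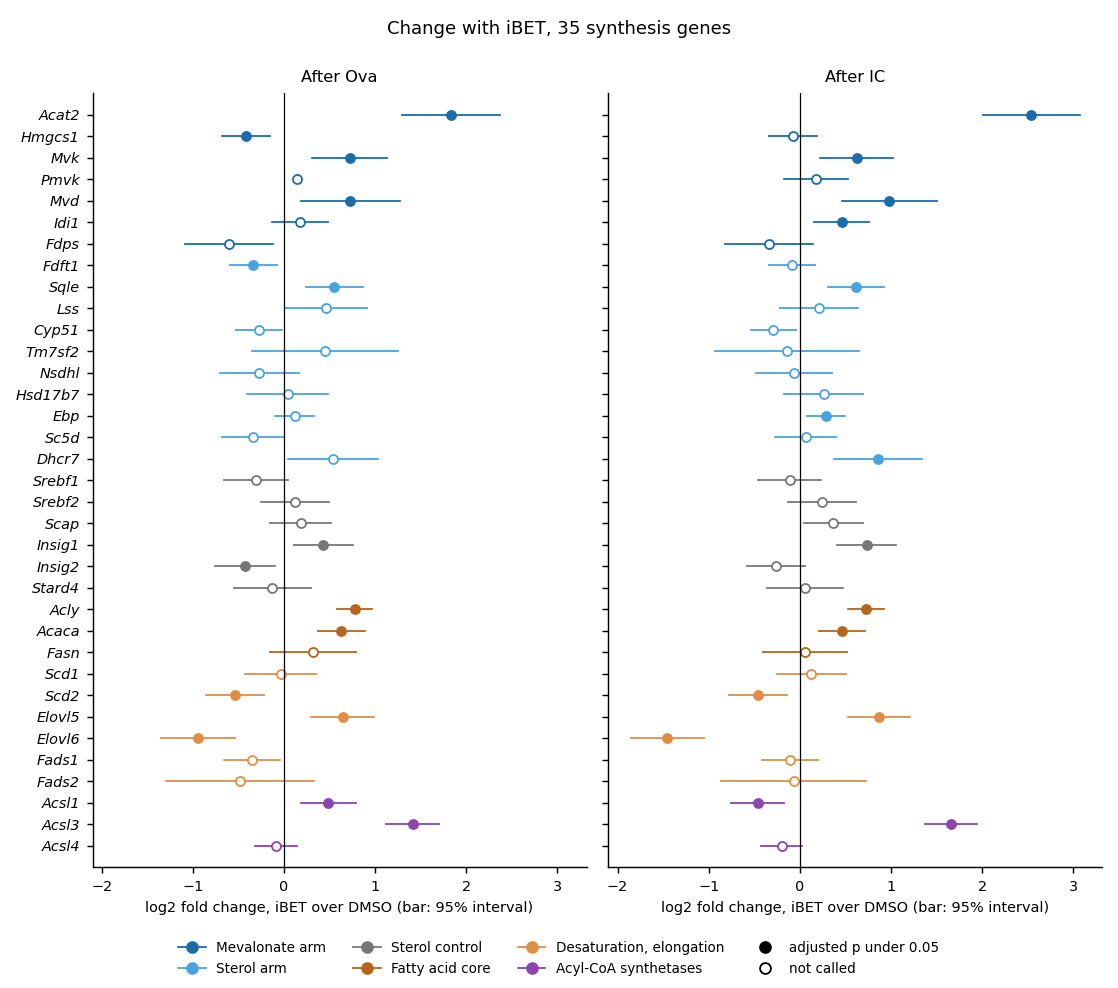
Log2 fold change of iBET over DMSO for each of the 35 genes after Ova (left) and after IC (right), on the same axis; bars are 95% intervals from the fit, filled points are called at an adjusted p under 0.05, open points are not, and Pmvk after Ova has no bar because its p was set by the counting error. Acat2 lies farthest to the right in both panels (1.83 and 2.54) and Elovl6 farthest to the left (-0.95 and -1.45).

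In the mevalonate arm, Acat2 showed the largest change of all 35 genes. It encodes a thiolase that joins acetyl-CoA units at the entry to the route. Its level was 14.9, 7.51 and 7.63 CPM in DMSO Ova (mice A, B and C), and 30.5, 28.0 and 37.6 CPM in iBET Ova. In DMSO IC it was 4.88, 4.18 and 7.24 CPM, and in iBET IC 31.6, 32.7 and 30.9 CPM. No iBET library overlapped a DMSO library. The rise was 3.56-fold after Ova (log2 1.83, SE 0.25, adjusted p = 0.000168) and 5.81-fold after IC (log2 2.54, SE 0.25, adjusted p = 1.2e-05). Leaving out the Rn45s-rich library, which was the highest of its group, gave log2 2.03 after Ova (adjusted p = 2.92e-05).

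Mvk and Mvd, the mevalonate kinase and the decarboxylase that makes isopentenyl diphosphate, rose too. Mvk was at 5.65, 10.7 and 9.28 CPM in DMSO Ova and at 14.4, 16.1 and 14.7 CPM in iBET Ova. In the IC groups it was at 6.82, 9.35 and 8.39 CPM with DMSO and at 12.0, 12.8 and 12.9 CPM with iBET. Every iBET library of Mvk was above every DMSO library of the same stimulation, and above those of the other stimulation as well. The log2 change was 0.72 after Ova (SE 0.19, adjusted p = 0.0117; 0.54 without the Rn45s-rich library, adjusted p = 0.0334) and 0.62 after IC (SE 0.18, adjusted p = 0.0196). After IC, the call was lost without the mouse A library of DMSO IC (log2 0.47, adjusted p = 0.0923) or the mouse B or mouse C library of iBET IC (0.61 and 0.60, adjusted p = 0.0541 and 0.0536). Mvd was at 3.08, 5.75 and 4.73 CPM in DMSO Ova, 7.64, 7.83 and 8.80 CPM in iBET Ova, 2.95, 4.84 and 5.72 CPM in DMSO IC, and 7.74, 9.30 and 9.59 CPM in iBET IC. The groups of Mvd did not overlap in either stimulation. Its log2 change was 0.73 after Ova (SE 0.25, adjusted p = 0.0428) and 0.98 after IC (SE 0.24, adjusted p = 0.00732). The Mvd call after Ova failed in 9 of the 12 fits that left out 1 library, among them the one without the Rn45s-rich library (log2 0.57, adjusted p = 0.119), whereas the call after IC held in all 12.

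Of the remaining mevalonate genes, 2 were called, each after 1 stimulation. Idi1, which isomerizes the isoprenoid unit, was at 37.0 to 43.8 CPM in DMSO IC and 50.5 to 66.0 CPM in iBET IC. It was called higher there (log2 0.46, SE 0.14, adjusted p = 0.022) and not after Ova (log2 0.18, adjusted p = 0.368). The Idi1 call was lost without the mouse A or mouse B library of DMSO IC (adjusted p = 0.099 and 0.0515) or the mouse C library of iBET IC (adjusted p = 0.104). Hmgcs1, the synthase ahead of mevalonate, went the other way after Ova, from 54.8 to 71.9 CPM in DMSO to 44.8 to 46.9 CPM with iBET, without overlap (log2 -0.42, SE 0.12, adjusted p = 0.02). That call was lost without the mouse A library (adjusted p = 0.0619) or the mouse C library (adjusted p = 0.0518) of iBET Ova, and without the Rn45s-rich library the change was -0.36 (adjusted p = 0.031). After IC, Hmgcs1 differed by log2 -0.08 (95% interval -0.34 to 0.18), and DMSO IC, at 39.5 to 48.2 CPM, spanned the iBET Ova levels. Fdps, which makes farnesyl diphosphate, was not called (log2 -0.60 and -0.34, adjusted p = 0.0586 and 0.265). It was called after Ova by DESeq2, with mouse as a block (log2 -0.59, adjusted p = 0.0176) and without the Rn45s-rich library (log2 -0.85, adjusted p = 0.00374). Pmvk, the phosphomevalonate kinase, was called in neither stimulation.

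**Figure D3:**
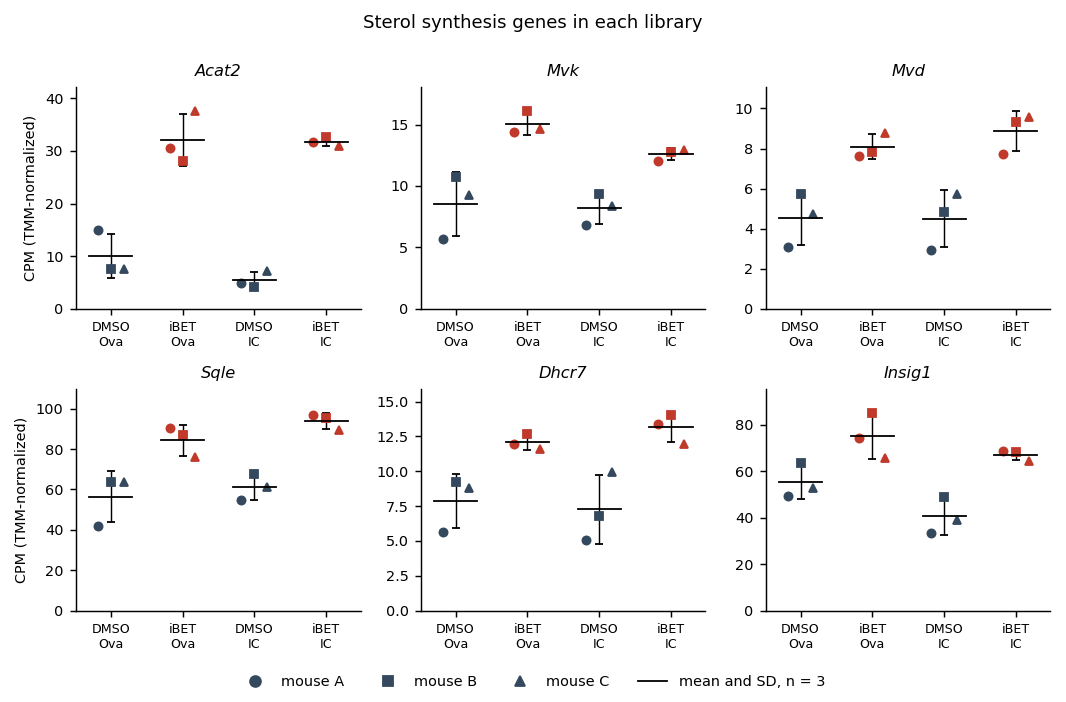
CPM of 6 sterol synthesis genes in each of the 12 libraries; symbols mark the mouse, dark points DMSO and red points iBET, and lines with bars are the mean and SD of 3 libraries. Acat2 is at 4.18 to 14.9 CPM with DMSO and 28.0 to 37.6 CPM with iBET, and in all 6 genes the red points stand above the dark points of the same stimulation.

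In the sterol arm, Sqle was called higher after both stimulations. It encodes squalene epoxidase, which adds the first oxygen to squalene and is a control point of the route. Levels were 42.1, 63.8 and 63.5 CPM in DMSO Ova and 90.5, 86.9 and 75.8 CPM in iBET Ova. In the IC groups they were 54.9, 67.8 and 61.1 CPM with DMSO and 97.0, 95.5 and 89.5 CPM with iBET. All 6 iBET libraries were above all 6 DMSO libraries. The log2 change was 0.55 after Ova (SE 0.14, adjusted p = 0.0115; 0.36 without the Rn45s-rich library, adjusted p = 0.0397) and 0.62 after IC (SE 0.14, adjusted p = 0.00484).

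Dhcr7, the reductase that completes cholesterol, was at 5.65, 9.20 and 8.79 CPM in DMSO Ova and 12.0, 12.7 and 11.6 CPM in iBET Ova. It was at 5.05, 6.82 and 9.91 CPM in DMSO IC and 13.4, 14.1 and 12.0 CPM in iBET IC. The groups stood apart in both stimulations, yet the call was made after IC (log2 0.86, SE 0.22, adjusted p = 0.00958) and not after Ova (log2 0.54, SE 0.23, adjusted p = 0.0947; 0.38 without the Rn45s-rich library, adjusted p = 0.252). The difference between the stimulations was 0.33 with a 95% interval of -0.36 to 1.01. Ebp, a sterol isomerase, rose by log2 0.29 after IC (adjusted p = 0.0381), from 47.0 to 53.8 CPM to 57.1 to 65.3 CPM. The Ebp call failed in 6 of 12 fits that left out 1 library, with adjusted p up to 0.191 (without the mouse A library of DMSO IC).

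Fdft1, which joins farnesyl units into squalene just ahead of Sqle, was called lower after Ova. It was at 34.4 to 42.5 CPM in DMSO Ova and 31.0 to 32.3 CPM in iBET Ova (log2 -0.34, SE 0.12, adjusted p = 0.0467), and this call failed in 9 of 12 fits that left out 1 library, with adjusted p up to 0.159 (without the mouse C library of DMSO Ova). Without the Rn45s-rich library the Fdft1 change was -0.46 (adjusted p = 0.0152). Its antisense neighbour Ctsb rose by log2 0.50 after Ova and 0.48 after IC (adjusted p = 0.00746 and 0.0081). After IC, Fdft1 itself was not called (log2 -0.09, adjusted p = 0.592). The other sterol arm genes, Lss, Cyp51, Tm7sf2, Nsdhl, Hsd17b7 and Sc5d, were not called after either stimulation. Lss, the cyclase that closes the ring, differed by log2 0.46 after Ova (adjusted p = 0.111; 0.30 without the Rn45s-rich library, adjusted p = 0.32) and was called with mouse as a block (log2 0.50, adjusted p = 0.016). For Cyp51, which removes the first methyl group, the change was log2 -0.28 after Ova and -0.29 after IC (adjusted p = 0.0863 and 0.0675). DESeq2 called Cyp51 lower after both stimulations. With the mouse block Cyp51 was called after IC (log2 -0.29, adjusted p = 0.0358), and without the Rn45s-rich library it and Sc5d were called lower after Ova (adjusted p = 0.00981 and 0.0321).

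Among the regulators, Insig1 was called higher and Insig2 lower after Ova, and the difference between the genes was not tested. Insig1, whose protein anchors SREBP in the endoplasmic reticulum and whose gene is itself a target of SREBP, was at 49.3, 63.4 and 53.0 CPM in DMSO Ova and 74.5, 85.2 and 65.7 CPM in iBET Ova. In DMSO IC it was at 33.6, 49.1 and 39.0 CPM, and in iBET IC at 68.8, 68.4 and 64.5 CPM. Every iBET library exceeded every DMSO library. The log2 change was 0.43 after Ova (SE 0.15, adjusted p = 0.0423) and 0.73 after IC (SE 0.15, adjusted p = 0.00218). After Ova the call failed in 8 of 12 fits that left out 1 library, and without the Rn45s-rich library the change was 0.32 (adjusted p = 0.173). The related Insig2 was called lower after Ova (log2 -0.43, SE 0.15, adjusted p = 0.0482), at 16.4 to 24.3 CPM in DMSO and 14.8 to 17.2 CPM with iBET, with overlap. Its change was 0.07, -0.62 and -0.56 in mice A, B and C. The Insig2 call failed in 10 of 12 fits that left out 1 library, with adjusted p up to 0.209 (without the mouse B library of DMSO Ova). Without the Rn45s-rich library the change was -0.58 (adjusted p = 0.00946).

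The transcription factor genes themselves were not called. Srebf2, whose product favours sterol genes, was at 84.2 to 126 CPM in DMSO Ova, 118 to 125 CPM in iBET Ova, 89.7 to 134 CPM in DMSO IC and 121 to 154 CPM in iBET IC. Srebf1, whose product favours fatty acid genes, was at 37.0 to 53.7 CPM in DMSO Ova and 34.5 to 43.8 CPM in iBET Ova (log2 -0.31, adjusted p = 0.171), and was called lower without the Rn45s-rich library (log2 -0.47, adjusted p = 0.0397). The escort gene Scap differed by log2 0.18 after Ova and 0.37 after IC (adjusted p = 0.407 and 0.077), and was called after IC with mouse as a block (log2 0.38, adjusted p = 0.023). Stard4, a sterol carrier, was at 12.5 to 21.6 CPM over all 12 libraries and was not called.

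In the fatty acid core, Acly and Acaca rose and Fasn was not called. Acly, the ATP citrate lyase that supplies acetyl-CoA in the cytosol, was at 109, 125 and 122 CPM in DMSO Ova and at 199, 201 and 211 CPM in iBET Ova. In the IC groups it was at 111, 121 and 127 CPM with DMSO and at 193, 205 and 195 CPM with iBET. The 6 DMSO values lay within 109 to 127 CPM and the 6 iBET values within 193 to 211 CPM, whatever the stimulus. The change was 1.71-fold after Ova (log2 0.77, SE 0.09, adjusted p = 5.67e-05) and 1.65-fold after IC (log2 0.72, SE 0.09, adjusted p = 7.51e-05). Without the Rn45s-rich library the Acly change after Ova was 0.67 (adjusted p = 0.000351). Acaca, the carboxylase that makes malonyl-CoA, was at 31.8, 38.9 and 43.9 CPM in DMSO Ova, 54.7, 60.7 and 64.8 CPM in iBET Ova, 42.0, 45.7 and 43.3 CPM in DMSO IC, and 62.8, 62.0 and 56.0 CPM in iBET IC. These groups did not overlap either (log2 0.63, SE 0.12, adjusted p = 0.00166 after Ova, and log2 0.47, SE 0.12, adjusted p = 0.00787 after IC), and after Ova the Acaca change was 0.49 without the Rn45s-rich library (adjusted p = 0.00737). Fasn, the fatty acid synthase, ranged from 39.5 to 73.3 CPM in DMSO Ova and from 68.1 to 81.8 CPM in iBET Ova (log2 0.32, adjusted p = 0.287; 0.095 without the Rn45s-rich library, adjusted p = 0.771). The mouse block brought a call there, higher with iBET (log2 0.37, adjusted p = 0.0281). The IC groups of Fasn spanned 56.3 to 87.0 CPM with DMSO and 63.4 to 86.5 CPM with iBET.

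Desaturation and elongation held genes moving in both directions. Elovl6, which lengthens palmitate to stearate, was at 13.4, 12.7 and 9.62 CPM in DMSO Ova and 5.48, 5.51 and 7.22 CPM in iBET Ova. It was at 13.3, 12.1 and 11.4 CPM in DMSO IC and 4.32, 5.14 and 3.96 CPM in iBET IC. All iBET libraries were below all DMSO libraries. The fall was log2 -0.95 after Ova (SE 0.19, adjusted p = 0.00227) and -1.45 after IC (SE 0.18, adjusted p = 8.59e-05), to 0.519 and 0.365 of the DMSO level, and without the Rn45s-rich library it was -0.93 after Ova (adjusted p = 0.0038). Its relative Elovl5, which lengthens polyunsaturated chains, did the opposite. Elovl5 was at 45.2, 68.5 and 67.6 CPM in DMSO Ova, 102, 93.2 and 94.0 CPM in iBET Ova, 47.1, 56.0 and 65.7 CPM in DMSO IC, and 97.6, 94.2 and 116 CPM in iBET IC. Again no iBET library overlapped a DMSO library (log2 0.65, SE 0.16, adjusted p = 0.00866 after Ova, and log2 0.87, SE 0.16, adjusted p = 0.00114 after IC). Without the Rn45s-rich library the Elovl5 change after Ova was 0.45 (adjusted p = 0.0348).

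Scd2, a stearoyl-CoA desaturase, was at 57.5, 83.3 and 78.3 CPM in DMSO Ova and 56.9, 50.7 and 45.6 CPM in iBET Ova. In DMSO IC it was at 48.1, 62.7 and 54.6 CPM, and in iBET IC at 37.7, 43.2 and 39.2 CPM. The groups did not overlap in either stimulation, though in Ova the mouse A values lay 57.5 against 56.9 CPM. The log2 change was -0.53 after Ova (SE 0.15, adjusted p = 0.0153) and -0.46 after IC (SE 0.15, adjusted p = 0.0273), and each call failed in 4 of 12 fits that left out 1 library. For Ova these were the mouse B or C libraries of either group (adjusted p = 0.0514 to 0.0744), while without the Rn45s-rich library the change was -0.71 (adjusted p = 0.00206). For IC they were the mouse B or C library of DMSO IC or the mouse A or C library of iBET IC (adjusted p = 0.0535 to 0.103). Scd1, the closely similar paralog, was at 19.5 to 32.5 CPM over all 12 libraries and was not called; reads shared by both copies could have been split between them. Fads1 and Fads2, the desaturases of polyunsaturated chains, were not called either (log2 -0.35 and -0.48 after Ova, adjusted p = 0.0771 and 0.359), and Fads1 was called lower after Ova without the Rn45s-rich library (log2 -0.55, adjusted p = 0.005). For Fads2 the change was then -0.71 (adjusted p = 0.214).

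**Figure D4:**
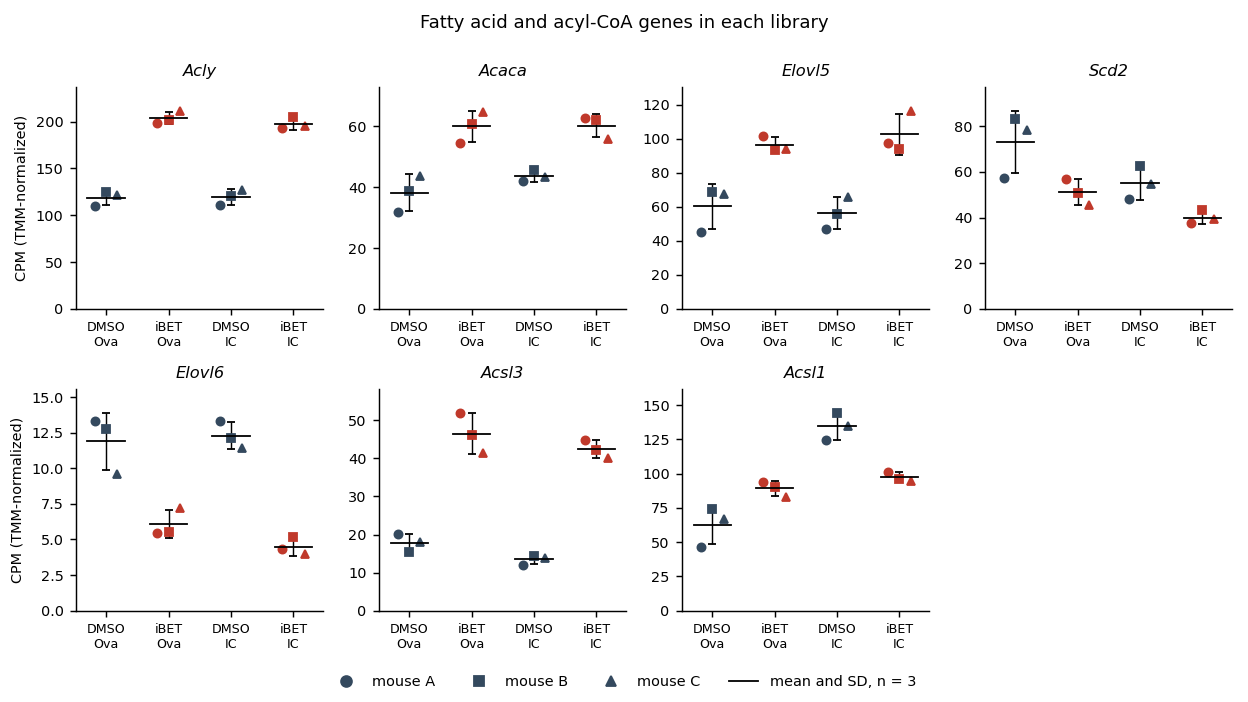
CPM of 7 fatty acid and acyl-CoA genes in each of the 12 libraries; symbols mark the mouse, dark points DMSO and red points iBET, and lines with bars are the mean and SD of 3 libraries. Acly, Acaca, Elovl5 and Acsl3 stand higher with iBET and Scd2 and Elovl6 lower in both stimulations, while Acsl1 is at 46.7 to 73.8 CPM in DMSO Ova, 124 to 144 CPM in DMSO IC and 82.8 to 101 CPM in the 6 iBET libraries.

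The acyl-CoA synthetases, which activate fatty acids for later use, each behaved differently. Acsl3, which is tied to lipid droplets, was at 20.0, 15.3 and 18.2 CPM in DMSO Ova and 52.0, 46.1 and 41.4 CPM in iBET Ova. It was at 12.0, 14.4 and 13.9 CPM in DMSO IC and 44.8, 42.3 and 40.0 CPM in iBET IC. The lowest iBET library was at 40.0 CPM and the highest DMSO library at 20.0 CPM. This was a 2.66-fold rise after Ova (log2 1.41, SE 0.13, adjusted p = 1.25e-05) and a 3.16-fold rise after IC (log2 1.66, SE 0.13, adjusted p = 2.76e-06), and 1.43 on the log2 scale after Ova without the Rn45s-rich library (adjusted p = 2.69e-05). Utp14b, which shares exonic bases with Acsl3 on the same strand, was not called (log2 0.15 and 0.19, adjusted p = 0.633 and 0.502). Acsl4 was at 175 to 262 CPM over all 12 libraries and was not called with iBET.

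Acsl1, which activates long-chain fatty acids, was called in opposite directions with iBET. Its level was 46.7, 73.8 and 66.8 CPM in DMSO Ova, 94.1, 90.4 and 82.8 CPM in iBET Ova, 124, 144 and 134 CPM in DMSO IC, and 101, 96.3 and 94.4 CPM in iBET IC. The 4 groups did not overlap, and both iBET groups lay between the DMSO groups. IC raised it 2.11-fold in DMSO (log2 1.08, SE 0.14, adjusted p = 0.0026), with 0.97 to 1.41 in the 3 mice and 0.91 without the Rn45s-rich library (adjusted p = 0.00366), and in iBET the change was log2 0.13 (adjusted p = 0.893). Beside this, iBET raised it after Ova (log2 0.49, SE 0.14, adjusted p = 0.0171) and lowered it after IC (log2 -0.46, SE 0.13, adjusted p = 0.018), in 3 of 3 mice each way. The change after Ova was 0.29 without the Rn45s-rich library (adjusted p = 0.0602), and that call was also lost without the mouse A or mouse B library of iBET Ova (adjusted p = 0.0597 and 0.0511). The call after IC was lost without the mouse B library of either group (adjusted p = 0.0605 for DMSO IC and 0.058 for iBET IC) or the mouse C library of iBET IC (0.0611). The test of the difference itself is the interaction, in which the change with IC under DMSO is subtracted from that under iBET. It was log2 -0.95 for Acsl1 (SE 0.19, unadjusted p = 0.000305), -1.30 to -0.82 in the 3 mice, and did not pass over all genes in edgeR (adjusted p = 0.701).

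The second question was what IC did to these genes. In DMSO, Acsl1 was the 1 gene of 35 called, beside 1.22% of all genes. A further 8 had an unadjusted p under 0.05, which makes 9 of the 35 (25.7%) beside 11.7% of all genes, and these 8 were all toward lower values and none passing the adjustment. They were Acat2 (log2 -0.72), Insig1 (-0.46), Hmgcs1 (-0.44), Scd2 (-0.43), Pmvk (-0.39), Acsl3 (-0.38), Idi1 (-0.36) and Cyp51 (-0.29), with adjusted p from 0.124 for Hmgcs1 to 0.37 for Pmvk. For Acat2 the change was -1.57, -0.82 and -0.07 in mice A, B and C, the first measured against the Rn45s-rich library. Its estimate ran from -1.12 to -0.39 over the alternatives. The median log2 change of the 35 was -0.15, against -0.01 over all genes. Below 0 were 24 of the 35, and 7 of 7 in the mevalonate arm, beside 5931 of all 11468 genes. In the 3 further lists taken up below, 17 of 18 fatty acid oxidation genes were below 0. So were 13 of 30 other synthesis genes and 8 of 20 genes that bear on SREBP. The values of the 35 moved with single libraries. The median was -0.30, with 29 of 35 below 0, without the Rn45s-rich library (-0.01 over all genes), and -0.098 without the mouse B library of DMSO Ova. It was -0.07 without the mouse A library and -0.23 without the mouse C library of DMSO IC. The genes with an unadjusted p under 0.05 then numbered 14, 4 and 5 of 35 without the Rn45s-rich library, the mouse B library of DMSO Ova and the mouse A library of DMSO IC, beside 12.3%, 9.8% and 13.6% of all genes. With mouse as a block, Hmgcs1 was also called (log2 -0.44, adjusted p = 0.0397), which brought the count to 2, beside 2.75% of all genes; without the Rn45s-rich library its change was -0.36 (adjusted p = 0.197). In Hmgcs1 the DMSO IC libraries, at 48.2, 47.3 and 39.5 CPM, lay below the DMSO Ova libraries, at 71.9, 58.8 and 54.8 CPM.

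In iBET, IC changed none of the 35 at an adjusted p under 0.05 by edgeR (and none by DESeq2, which gave 34 of them an adjusted p), beside 0.349% of all genes, and 4 of the 35 (11.4%) had an unadjusted p under 0.05, beside 7.5% of all genes. The median change was 0.02. For the interaction, 0 of 35 were called by edgeR, as were 0% of all genes. Acsl1 was the 1 gene of 35 with an unadjusted p under 0.05 (2.86%), beside 2.55% of all genes. DESeq2 called 1 of the 35, which was Acsl1 (adjusted p = 0.0498), beside 0.0239% of all genes.

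**Figure D5:**
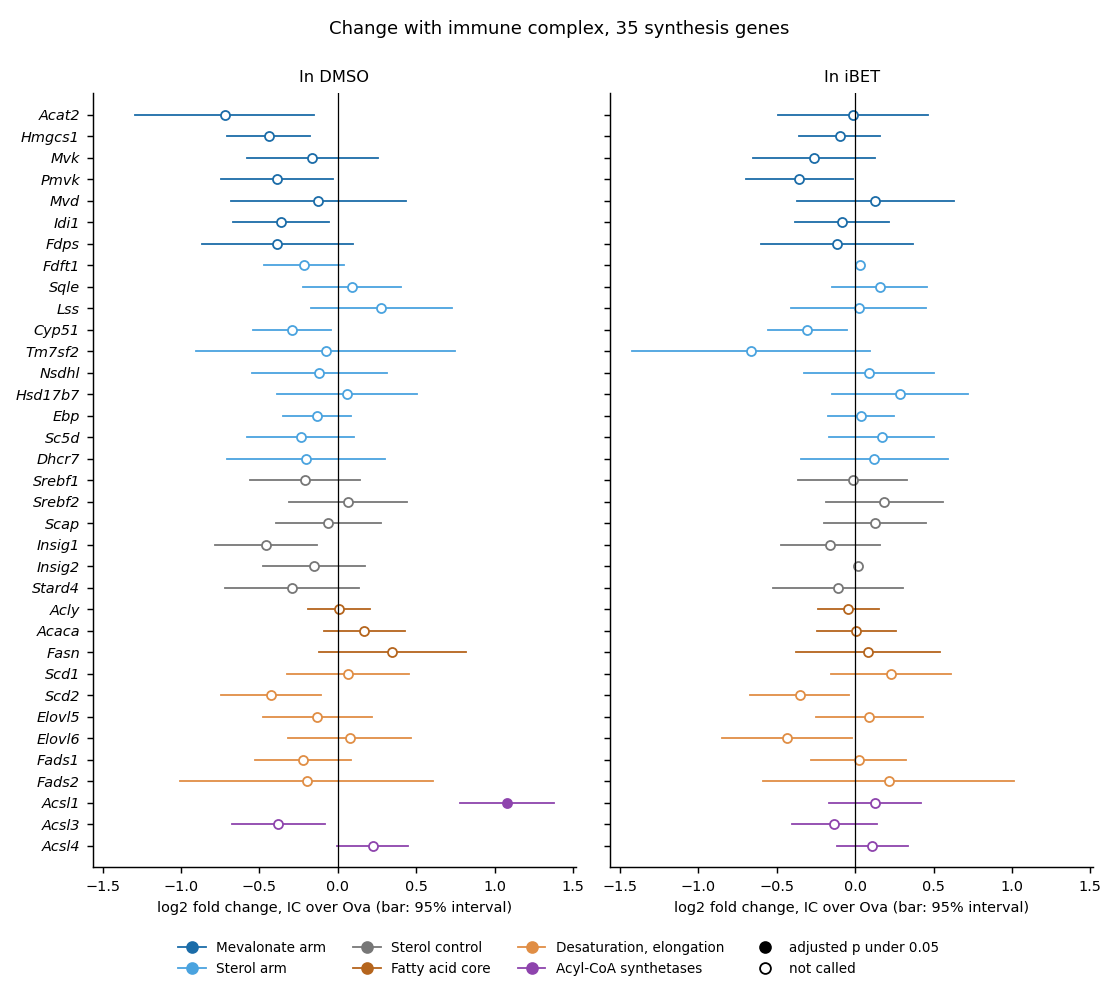
Log2 fold change of IC over Ova for each of the 35 genes in DMSO (left) and in iBET (right), on the same axis; bars are 95% intervals from the fit, filled points are called at an adjusted p under 0.05 and open points are not, and Fdft1 and Insig2 in iBET have no bar because their p was set by the counting error. Acsl1 in DMSO, at 1.08, is the single filled point.

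Neighbouring genes of the same pathways were counted from 3 further lists. Their values, from fits over all 12 libraries, are not given without the Rn45s-rich library. Of other synthesis genes, 30 of 35 could be tested; after Ova 9 were called higher and 4 lower, and after IC 7 higher and 3 lower. That is 43.3% and 33.3% of those tested, beside 31.3% and 34.8% of all genes. The largest rises called in both were Acss2, which makes acetyl-CoA from acetate (log2 1.65 and 1.97, adjusted p = 0.000826 and 0.000182), Mcat (1.20 and 0.96) and Mlycd (0.95 and 0.91). Mlycd is on this list although its enzyme breaks down malonyl-CoA. Oxsm (log2 -0.75 and -0.54) and Mid1ip1 (-0.54 and -0.63), whose product activates Acaca, were called lower in both. Of genes that bear on SREBP, 20 of 21 could be tested, and 4 were called higher and 3 lower after Ova, 5 higher and 3 lower after IC (35% and 40%, near the shares of all genes). Nfya, a subunit of the factor that binds the NF-Y box, rose (log2 0.85 and 0.75, adjusted p = 6.31e-05 and 0.000136), and so did Pgrmc1 (0.73 and 0.75) and Vcp (0.39 and 0.38). The subunit gene Nfyc (log2 -0.51 and -0.49) and Usf2, which encodes an E-box factor (-0.52 and -0.64), were called lower in both. Of 18 fatty acid oxidation genes, 7 were called after Ova and 9 after IC (38.9% and 50%, beside 31.3% and 34.8% of all genes). All of these genes were called higher, beside 17.1% and 19% of all genes called higher. They were led by Cpt1a, which admits fatty acids to mitochondria (log2 0.89 and 0.99, adjusted p = 0.000521 and 0.000201), Etfdh (0.67 and 0.71) and Acadvl (0.71 and 0.65). With IC in DMSO, 0 genes of these 3 lists were called by edgeR, and 3 of the 68 tested (4.41%) had an unadjusted p under 0.05, beside 11.7% of all genes. DESeq2 called 1 of them, Usf1, a transcription factor named here after its values were seen (log2 -0.49, adjusted p = 0.0818 by edgeR).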

How the data were processed

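RNA was measured in 12 BMDM libraries, 4 groups of 3, grouped by the labels' treatment and stimulation. The authors made libraries with a SMARTer pico total RNA kit, trimmed reads with Trim Galore, aligned them to mm10 with HISAT2 and counted them with featureCounts, and deposited counts per gene symbol. The annotation and the use of strand are not given in the sources used here. The other deposited table is a normalized signal, which equalled the counts over 1 size factor per library, with 100% of values whole within 1e-06 after multiplying back. Genes were kept by filterByExpr (minimum count 10) and fitted in edgeR 4.0.16 (R 4.3.3) with TMM factors, a robust quasi-likelihood model over all 12 libraries and 1 term per group. Two-sided p-values were adjusted over 11468 genes by the Benjamini-Hochberg method. The SE is the log2 change over the root of F, and CPM are TMM-normalized. Changes per mouse use log2 CPM (prior count 2). The fit was tested on simulated data.

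The labels name the mouse of each library (A, B or C). Libraries of the same mouse were paired on that ground for the changes per mouse and for the mouse block. The main fit had no mouse term, so its tests were unpaired. Deviations from the group means correlated at a median of 0.263 over 18 same-mouse pairs (-0.0725 to 0.542) and -0.134 between mice. Deviations from a mean of 3 libraries sum to 0 in each group. A value above 0 within mice therefore pulls that between mice below 0, and they are not independent. No libraries were duplicates (chi-square per degree of freedom 8.14 to 65.4 within groups). A single mouse gave each library, and the same 3 mice gave every group. The main p-values measure the spread between libraries within groups, with the pairing by mouse left out. The limits of depth are those of counting.

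Alternatives were DESeq2 1.42.0, its size factors, other filters, mouse as a replicate block, 1 surrogate variable (sva), the compared groups alone, the signal in limma on log2(value + 1), Rn45s removed, a 1.5-fold minimum, and leaving out each library or mouse. The members, lists and motifs were chosen with earlier results of these data known. Values in every library are given for genes called with a log2 change of at least 0.5 in size, or with an unadjusted interaction p under 0.05, and the other genes by range. From each further list at most 3 genes per direction, called with iBET in both stimulations, are named. No log2 change is given for an uncalled gene whose direction turned in an alternative.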

Additional observations from a re-analysis of the deposited data

Results flagged for a closer look

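Acsl1 was flagged because its estimated change with IC was log2 1.08 in DMSO and 0.13 in iBET. In edgeR it was the 1 gene of 35 (2.86%) with an unadjusted interaction p under 0.05, beside 2.55% of all genes. The interaction was log2 -0.95 (unadjusted p = 0.000305, the lowest of the 35 genes), it was below 0 in 3 of 3 mice, and it did not pass over all genes in edgeR (adjusted p = 0.701). The iBET change was above 0 after Ova and below 0 after IC in every mouse, and Acsl1 was the 1 gene of 35 with this pattern. With mouse as a replicate block the interaction was -0.95 (adjusted p = 0.381) in edgeR and was called in DESeq2 (-0.94, adjusted p = 0.0121). Without the Rn45s-rich library it was -0.78.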

How the results depend on the processing

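The 31 calls made over the 35 genes kept their direction under every alternative run. In the fits without 1 library, 8 of the 15 calls after Ova and 10 of the 15 after IC held in all 12. Over the fits without 1 library or 1 mouse, the count of genes called ran from 3 to 19 after Ova and from 6 to 15 after IC, with the lowest without mouse B (3 and 6, that is 8.57% and 17.1%, beside 11.4% and 15.4% of all genes) and the highest after Ova without mouse A (beside 33.6%). Acat2, Acly and Acsl3 were called in both comparisons in all 3 fits without 1 mouse. After Ova the count was 9 with the compared groups fitted alone, 8 at a 1.5-fold minimum and 22 with 1 surrogate variable (11 higher and 11 lower), beside 26.7%, 21.4% and 38.9% of all genes. With the mouse replicate block, IC in DMSO gave 2 genes in edgeR and 3 in DESeq2, beside 2.75% and 3.78% of all genes. A surrogate variable gave 3 and the compared groups alone gave 0, beside 3.4% and 0.0449% of all genes. Leaving out libraries or mice gave 0 to 1, beside 0% to 1.38% of all genes (0 without mouse B or mouse C). For the interaction, DESeq2 called 1 gene without the block and 1 with it, beside 0.0239% and 0.0358% of all genes. The cause of these changes was not tested. By CPM without division by length, 3 of the 5 highest genes were shared with the order per kilobase. Adding mouse as a block and leaving out the Rn45s-rich library together was chosen after seeing the data. In edgeR the block changed no call of the 35 genes other than those given. Genes near 1 to 10 CPM rest on few counts, most of all in the Rn45s-rich library.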
